A study of Mus musculus with 24 samples.

Results

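The 10 genes described here, S100a8, S100a9, Retnlg, Csf3r, Cxcr2, Mmp8, Trem1, Cd177, Treml2 and Il1r2, are genes known for high expression in mature mouse neutrophils. They were taken by gene symbol from a table of 45777 genes, and all 10 symbols were found. The libraries were made from polyA RNA of skin and of dorsal root ganglia (DRG, where the cell bodies of sensory nerves sit beside the spinal cord) of BALB/c mice, all female and aged 6 weeks. There were 4 groups of 6 libraries: LL37 model skin, control skin, LL37 model DRG and control DRG. Model mice were injected into the skin with LL37, a human antimicrobial peptide of the cathelicidin family used to set up a rosacea-like state, at a concentration of 320 µM and a volume of 40 µL over 2 days. What the controls were injected with, and when skin was taken, is not given in the labels. The series description states that DRG were taken on day 4 and that oral gabapentin was given from day 3, but not to which mice, so the drug cannot be told apart from the model in either comparison. The labels also do not say that each library came from its own mouse, so the p-values measure the spread between these libraries, which may be partly technical.

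Neutrophils are short-lived white blood cells that mature in the bone marrow, circulate in blood and enter tissue at sites of infection or injury. Granulocyte colony-stimulating factor, acting through the receptor encoded by Csf3r, drives their production, and CXC chemokines acting through CXCR2 draw them out of the marrow and into tissue. Granule proteins such as elastase and myeloperoxidase are transcribed in immature cells of the marrow, whereas the transcripts described here are prominent in late and circulating cells. Several are not confined to neutrophils: keratinocytes under stress transcribe S100a8 and S100a9, and monocytes and macrophages transcribe Csf3r and Trem1.

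The 250 bases before the transcription start are shown for 5 of the genes. The set pairs S100a8 and S100a9, the most abundant transcripts per length in every group, with Retnlg, Csf3r and Cd177, which were called in skin under every alternative in which they were tested. All are from RefSeq on GRCm38.p6, written 5′ to 3′ on the strand of the gene, and 9 of the 10 genes matched an entry. Capitals mark a match, on either strand, to 1 of 3 motifs: TTGCNNAA, which C/EBP factors are known to bind, GAGGAAG, a core bound by PU.1, and TATAAA, the TATA box. The windows searched ran from 250 bases before to 50 bases after the start, and no 2 matches overlapped in the sequences shown. For Retnlg, the bases just after this start were in no GENCODE transcript of the gene, so its start was not matched by a second source. The bases shown for Csf3r lie wholly within the span of the gene (126023441 to 126044975), before a start inside it. Those shown for Cd177 partly overlap its span (24743983 to 24760334). S100a8 lies on chromosome 3 on the plus strand (window chr3:90668821-90669070), S100a9 on chromosome 3 on the minus strand (chr3:90695722-90695971), Retnlg on chromosome 16 on the plus strand (chr16:48872358-48872607), Csf3r on chromosome 4 on the plus strand (chr4:126024409-126024658) and Cd177 on chromosome 7 on the minus strand (chr7:24760312-24760561).
S100a8: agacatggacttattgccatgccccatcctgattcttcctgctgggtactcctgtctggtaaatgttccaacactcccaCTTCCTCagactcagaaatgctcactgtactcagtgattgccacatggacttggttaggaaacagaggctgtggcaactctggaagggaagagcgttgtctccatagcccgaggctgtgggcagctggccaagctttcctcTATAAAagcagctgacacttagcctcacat
S100a9: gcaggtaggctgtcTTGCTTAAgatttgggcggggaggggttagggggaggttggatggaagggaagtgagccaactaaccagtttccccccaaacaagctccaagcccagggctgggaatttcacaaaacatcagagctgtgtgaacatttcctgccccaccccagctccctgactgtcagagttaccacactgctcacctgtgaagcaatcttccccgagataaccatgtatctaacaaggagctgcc
Retnlg: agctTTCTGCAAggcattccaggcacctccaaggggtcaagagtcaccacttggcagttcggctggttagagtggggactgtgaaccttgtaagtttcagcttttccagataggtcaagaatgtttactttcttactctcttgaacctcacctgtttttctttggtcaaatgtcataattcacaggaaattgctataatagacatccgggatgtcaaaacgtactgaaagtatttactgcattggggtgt
Csf3r: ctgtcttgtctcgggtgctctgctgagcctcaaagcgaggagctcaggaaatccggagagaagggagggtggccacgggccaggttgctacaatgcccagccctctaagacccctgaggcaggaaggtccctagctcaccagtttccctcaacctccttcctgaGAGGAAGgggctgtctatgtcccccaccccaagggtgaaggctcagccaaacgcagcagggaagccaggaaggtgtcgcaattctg
Cd177: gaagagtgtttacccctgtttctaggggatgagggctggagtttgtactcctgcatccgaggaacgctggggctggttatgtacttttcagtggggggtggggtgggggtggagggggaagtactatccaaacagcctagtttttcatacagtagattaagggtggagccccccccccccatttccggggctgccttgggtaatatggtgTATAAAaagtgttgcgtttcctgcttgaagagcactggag
TATAAA stood 30 to 25 bases before the start of S100a8 and 40 to 35 bases before that of Cd177. TTGCNNAA stood 236 to 229 bases before the start of S100a9 and, on the other strand, 246 to 239 bases before that of Retnlg. GAGGAAG stood 86 to 80 bases before the start of Csf3r and, on the other strand, 171 to 165 bases before that of S100a8. Over the 9 genes with a window, TTGCNNAA was in 3, GAGGAAG in 3 and TATAAA in 4. The TATAAA counted for S100a9 began at its start and so lies outside the bases shown. Of all 32851 promoter windows of that length, 10.8% held TTGCNNAA, 13.6% GAGGAAG and 13.6% TATAAA. These matches describe letters only.

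Total counts ranged from 45238735 to 68396846 per library, and no 2 libraries of a group agreed within counting noise. The tissue labels were matched by markers: 8 sensory neuron genes summed to 7384 to 10170 CPM (counts scaled to library size) in DRG and to 4.50 to 43.9 CPM in skin, and 6 epidermal keratinocyte genes to 6797 to 24600 CPM in skin and 2.12 to 3.83 CPM in DRG. The neutrophil label was less well matched in skin. Ly6g, the surface protein by which mouse neutrophils are usually identified, had 8, 0, 0, 11, 0 and 0 counts in the model skin libraries and 0, 0, 0, 4, 0 and 0 counts in the control skin libraries, whereas every DRG library had between 3 and 226. Ngp, a granule protein of immature neutrophils, had at most 7 counts in any skin library and 327 to 8374 in DRG. In skin the genes are therefore described as genes and not as a measure of neutrophils. Ly6g and Ngp were chosen for this check after their values had been seen.

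Per transcript length, S100a9 and S100a8, which encode the subunits of the calcium-binding alarmin calprotectin, were the most abundant of the 10 in every group. In model skin S100a9 averaged 147 ± 130 TPM (a level scaled to transcript length and library size) and S100a8 71.2 ± 56.9 TPM (SD, n = 6). These were followed there by Il1r2 at 67.5 ± 21.3, Retnlg at 56.3 ± 40.2, Csf3r at 21.3 ± 17.3, Cxcr2 at 11.2 ± 8.54, Treml2 at 5.07 ± 3.39, Cd177 at 2.28 ± 1.54, Trem1 at 1.72 ± 1.6 and Mmp8 at 1.34 ± 1.12 TPM. Neighbours in this order differed by less than the larger of their SDs. In control skin Il1r2, at 56.0 ± 17.1 TPM, was again next after S100a9 and S100a8, Cxcr2 averaged 4.74 ± 1.92 TPM and Csf3r 1.72 ± 1.22 TPM, and the remaining 5 genes averaged under 1 TPM. In model DRG S100a9 averaged 264 ± 355 and S100a8 175 ± 235 TPM, ahead of Retnlg at 18.1 ± 21.0, Mmp8 at 5.50 ± 6.74 and Cd177 at 4.36 ± 6.39 TPM. In control DRG S100a9 averaged 111 ± 80.4, S100a8 72.4 ± 51.0, Retnlg 7.83 ± 3.51, Mmp8 2.24 ± 1.35 and Cd177 1.44 ± 0.865 TPM. The order differed between tissues: Il1r2 was the third of the 10 in both skin groups and the ninth in model DRG, and Mmp8 was the fourth in both DRG groups and the last in model skin.

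**Figure D1:**
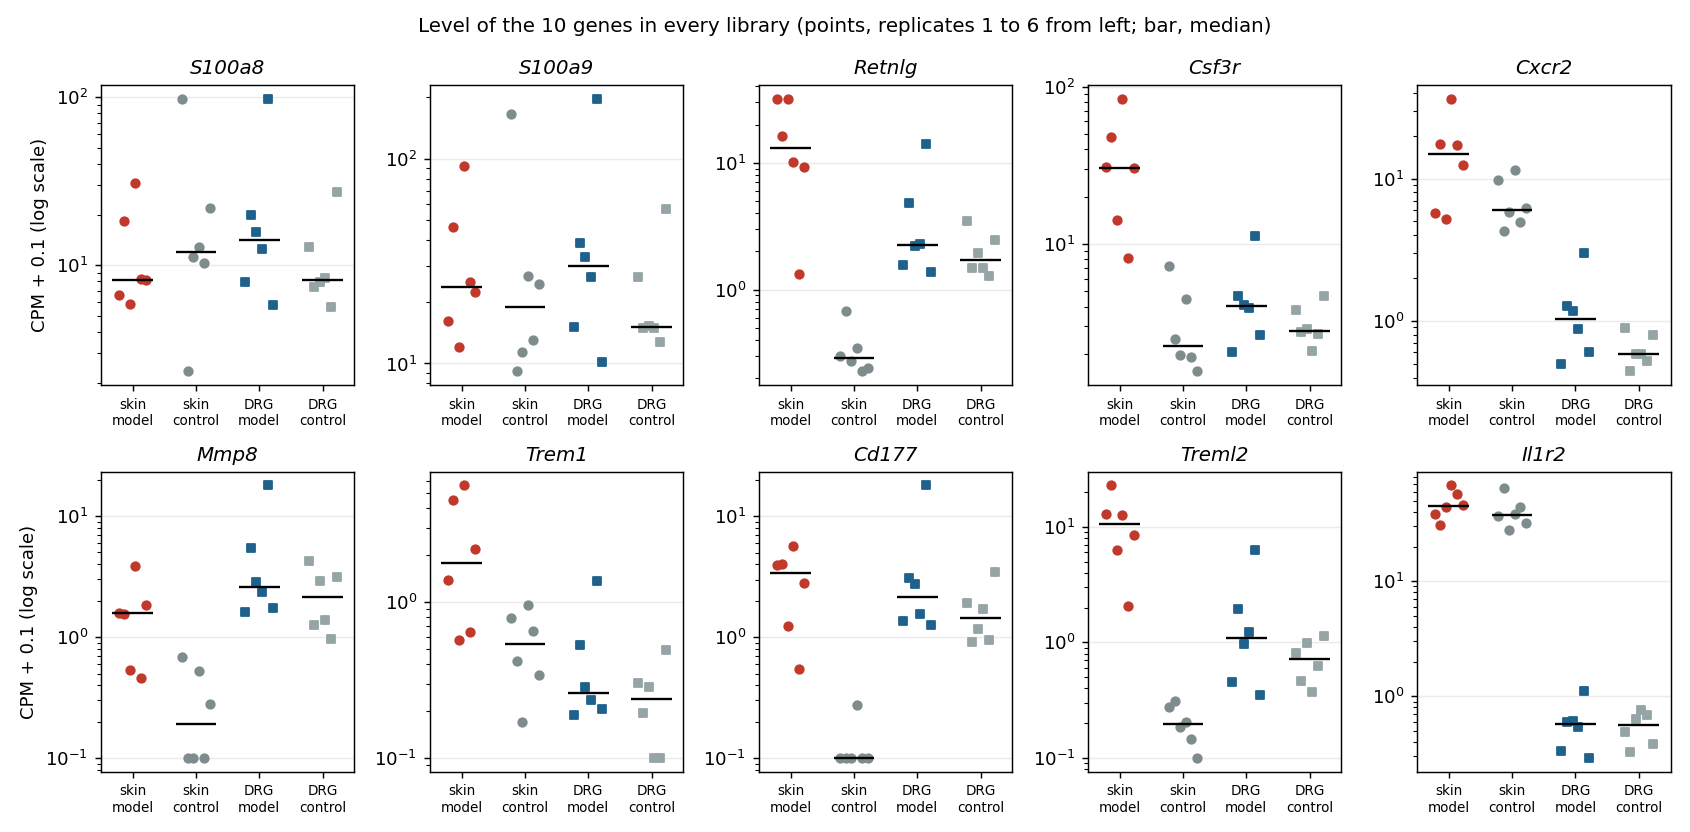
Level of each of the 10 genes in every library, 1 panel for each gene, as CPM + 0.1 on a log axis, for model skin, control skin, model DRG and control DRG from left; points are libraries (6 in each group) and bars are medians. For Retnlg, Csf3r, Cd177 and Treml2 every model skin point lies above every control skin point, and in model DRG the same library is the highest for each gene.

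In skin, 6 of the 10 genes rose in the model and 0 fell. They were Treml2, Cd177, Retnlg, Csf3r, Mmp8 and Trem1. Their fitted fold changes ran from 5.24-fold for Trem1 to 103-fold for Treml2. The alarmins S100a8 and S100a9, the chemokine receptor Cxcr2 and the decoy receptor Il1r2 did not pass the test. The test was edgeR's quasi-likelihood F test with Benjamini-Hochberg (BH) adjustment over the 19526 genes tested and a threshold of 0.05. It called 14.1% of all genes tested higher and 5.82% lower in model skin. All 10 genes passed the filter on low counts in both tissues. The median log2 fold change was 2.69 over the 10 genes, of which 8 were positive, against -0.02 over all genes tested. In bulk tissue, a change in the number of cells of a type and a change in RNA per cell cannot be told apart.

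Csf3r (gene 12986, chromosome 4, 126023441 to 126044975), the receptor for granulocyte colony-stimulating factor, was at 8.06, 14.2, 30.2, 30.8, 47.7 and 83.8 CPM in model skin, in order of level, against 1.46, 1.81, 1.89, 2.40, 4.40 and 7.12 CPM in control skin. The groups did not overlap, although the lowest model library was close to the highest control. The difference was 3.50 ± 0.60 on the log2 scale (SE, adjusted p = 0.00194, edgeR), or 11.3-fold. Treml2 (gene 328833, chromosome 17, 48299390 to 48312534), a receptor of the TREM family, was at a lowest, median and highest level of 1.98, 10.5 and 22.7 CPM in model skin, against 0, 0.0965 and 0.212 CPM in control skin. Every model library stood above every control library by a wide margin. The log2 difference was 6.69 ± 0.70 (adjusted p = 0.000548, edgeR).

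Trem1 (gene 58217, chromosome 17, 48232713 to 48246927), a receptor that amplifies inflammatory signalling in neutrophils and monocytes, was at 0.468, 1.69 and 5.49 CPM (lowest, median and highest) in model skin, against 0.0693, 0.437 and 0.851 CPM in control skin. The groups overlapped, with 4 of 6 model libraries above every control. It rose by 2.39 ± 0.69 on the log2 scale (adjusted p = 0.0313, edgeR). The call was lost when any of model libraries 2 and 4 or control libraries 3, 5 and 6 was left out, where the adjusted p reached 0.0759. It was also lost in limma on log2(TPM + 1) and on log2(TPM + 0.1), at adjusted p of 0.0810 and 0.0593.

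Cxcr2 (gene 12765, chromosome 1, 74153994 to 74161246), the receptor for neutrophil-attracting CXC chemokines, was at 5.13, 14.7 and 36.3 CPM in model skin, against 4.21, 5.88 and 11.4 CPM in control skin. Here 4 of 6 model libraries were above every control and the other two lay among the controls. The log2 difference of 1.17 ± 0.45 missed the threshold (adjusted p = 0.0874, edgeR), and DESeq2 put it past the threshold. Without model library 3 edgeR also called it, at an adjusted p of 0.0439. Il1r2 (gene 16178, chromosome 1, 40084692 to 40125230), a decoy receptor that binds interleukin-1 without signalling, was at 30.8, 44.7 and 68.1 CPM in model skin, against 28.1, 37.6 and 64.3 CPM in control skin. The groups overlapped almost throughout, and the log2 difference was 0.22 ± 0.22 (adjusted p = 0.505, edgeR).

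Of the secreted products, Retnlg (gene 245195, chromosome 16, 48872608 to 48874498), a resistin-like protein of marrow and blood granulocytes, was at 1.22, 9.20, 9.98, 16.1, 31.8 and 31.9 CPM in model skin, in order of level, against 0.127, 0.140, 0.173, 0.201, 0.248 and 0.574 CPM in control skin. Every model library was above every control. The log2 difference was 6.11 ± 0.76 (adjusted p = 0.000553, edgeR). Mmp8 (gene 17394, chromosome 9, 7558429 to 7568486), the neutrophil collagenase, was at 0.363, 1.48 and 3.74 CPM in model skin, against 0, 0.0897 and 0.580 CPM in control skin. The 2 lowest model libraries lay below the highest control. It rose by 2.98 ± 0.95 on the log2 scale (adjusted p = 0.0451, edgeR), which passed in 4 of the 12 fits that left out 1 library and failed without model library 1, 2, 4 or 6 or control library 3, 4, 5 or 6, with an adjusted p of up to 0.110. It also failed with no filter on low counts (adjusted p = 0.0671, edgeR).

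Cd177 (gene 68891, chromosome 7, 24743983 to 24760334), a glycoprotein on the surface of neutrophils that binds PECAM1, was at 0.445, 1.13, 2.69, 3.85, 3.97 and 5.57 CPM in model skin, in order of level. In control skin it had 10 counts in all, every one of them in control library 4, at 0.177 CPM. Every model library was above every control, and the ratio of the group means was 99.6. The fitted log2 difference was 6.47 ± 0.98 (adjusted p = 0.000991, edgeR). Without control library 4 the controls held no count. Against those 5 controls alone Cd177 was at least 258-fold higher in model skin, taking 3 counts over all 5 as the floor. That is no bound on the ratio with control library 4 kept, which was 99.6. Together with Csf3r, Treml2 and Retnlg, Cd177 made 4 of 10 genes for which every model skin library stood above every control, which was so for 7.25% of all genes tested.

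S100a8 (gene 20201, chromosome 3, 90669071 to 90670034) was at 5.77, 8.08 and 30.7 CPM in model skin, against 2.23, 11.9 and 97.9 CPM in control skin. S100a9 (gene 20202, chromosome 3, 90692630 to 90695721) was at 11.9, 23.5 and 91.9 CPM in model skin, against 9.05, 18.7 and 166 CPM in control skin. For both genes the groups overlapped and the highest library of all was control library 1. The log2 differences were -1.01 ± 0.76 for S100a8 (adjusted p = 0.368, edgeR) and -0.23 ± 0.76 for S100a9 (adjusted p = 0.856, edgeR). Without control library 1 they were 0.15 (adjusted p = 0.876) and 1.07 (adjusted p = 0.181), so that library set the direction of both. The sum of 11 stressed keratinocyte genes was 4185 to 8709 CPM in model skin, against 10190 CPM in control library 1, again the highest, and 3990 to 9955 CPM in the remaining controls. The part of these genes in the result was not tested. By edgeR, none of the 10 stressed keratinocyte genes tested passed in skin. An unadjusted p under 0.05 was reached by 3, beside 6904 of all 19526 genes tested. Krt17, a keratin of stressed epidermis, differed by -0.62 ± 0.23 (adjusted p = 0.0794, edgeR) and Sprr2h, of the cornified envelope family, by -1.42 ± 0.58 (adjusted p = 0.102, edgeR), and DESeq2 called both lower.

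**Figure D2:**
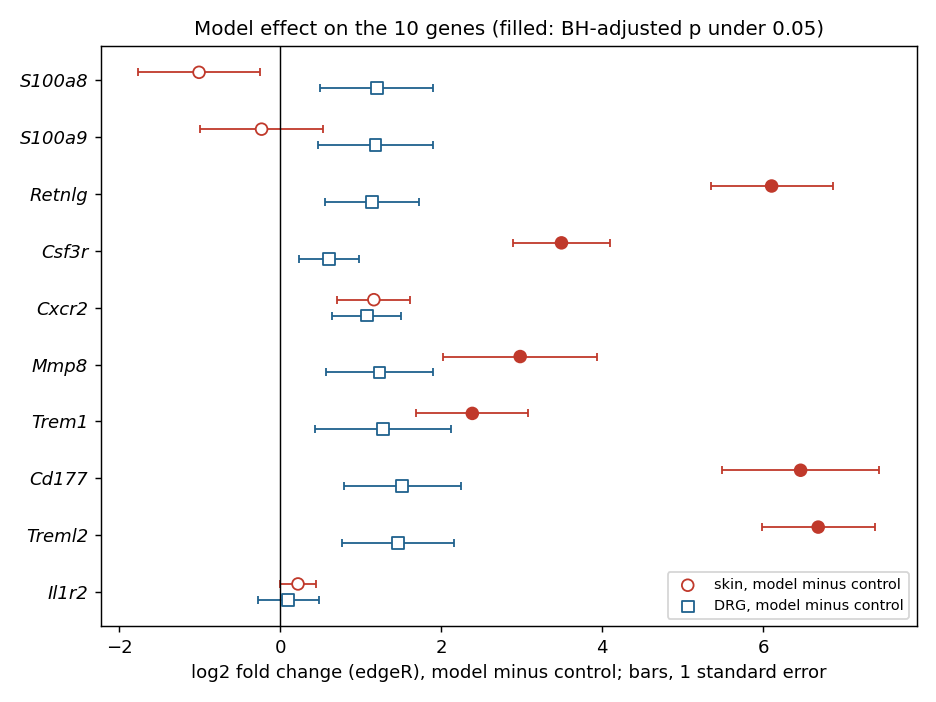
Model minus control log2 fold change of each gene in skin and in DRG, with bars of 1 SE, on a linear axis in log2 units; filled points passed an adjusted p of 0.05. In skin the 6 filled points lie between 2.39 and 6.69, and in DRG no point is filled although all 10 lie above 0.

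The model skin libraries did not rank alike. Model library 4 was the highest of the 6 for 8 of the 10 genes, and the exceptions were Retnlg, highest in libraries 3 and 1, and Treml2, highest in library 2. Retnlg in library 4, at 9.98 CPM, was 31.3% of its highest level, while Mmp8, Trem1, Cd177, Csf3r and Cxcr2 were at their highest there. Model library 5 was the lowest for 5 genes, and held 3.82% of the highest Retnlg level, 7.99% of the highest Cd177 level and 8.71% of the highest Treml2 level, but 46.9% of the highest Cxcr2 level and 84.0% of the highest Il1r2 level. Model library 2 also held B and T cell transcripts: 5 B cell genes summed to 154.5 CPM, while the other model libraries had 1.29 to 14.9 CPM, and 7 T cell genes to 171.2 CPM, against 13.1 to 27.5 CPM. Without it Trem1 and Mmp8 missed the threshold (adjusted p = 0.0531 and 0.0550, edgeR), and the calls of Retnlg, Csf3r, Cd177 and Treml2 held.

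**Figure D3:**
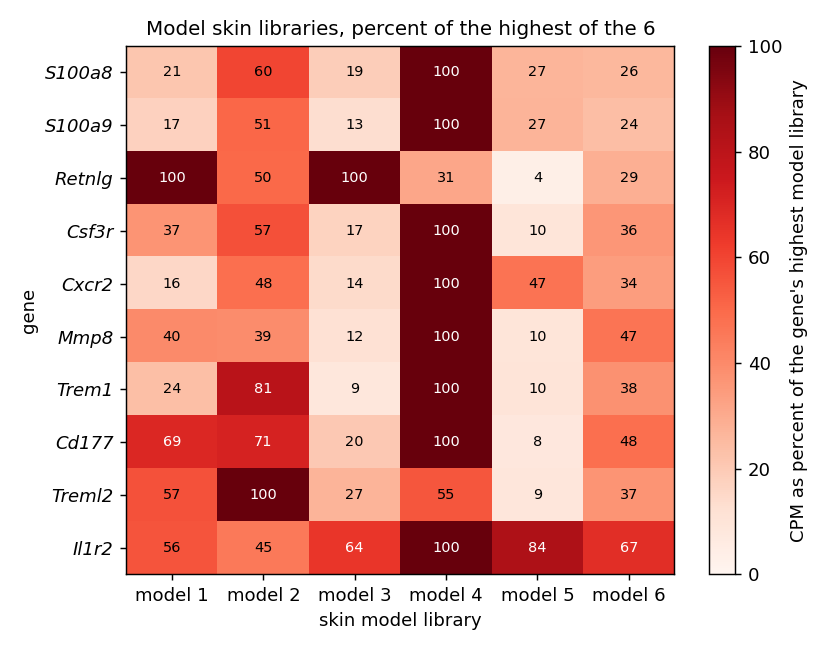
Level of each gene (rows) in each of the 6 model skin libraries (columns), as CPM in percent of that gene's highest model library; darker red is higher. Library 4 is at 100% for 8 of the 10 genes, and library 5 is at 3.82% for Retnlg and 84.0% for Il1r2.

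Set against Csf3r in the same library, as ratios of counts, the genes stood differently in the 2 tissues. S100a8 was 0.211 to 1.01 counts per Csf3r count in model skin and 0.929 to 15.1 in control skin, whereas it was 2.23 to 8.74 in model DRG and 2.12 to 5.92 in control DRG. Mmp8 was 0.0304 to 0.0579 per Csf3r count in model skin, against 0.588 to 1.6 in model DRG and 0.333 to 1.11 in control DRG. Cd177 was 0.0552 to 0.13 in model skin, against 0.377 to 1.61 in model DRG and 0.305 to 0.816 in control DRG. Model skin thus lay below every DRG library in all 3 ratios. Treml2, in contrast, overlapped, with 0.150 to 0.475 per Csf3r count in model skin, 0.1 to 0.552 in model DRG and 0.135 to 0.319 in control DRG. Retnlg, Trem1 and Cxcr2 also overlapped, and Cxcr2 reached 2.12 in model skin, against 0.27 in model DRG. Il1r2 went the other way, with 0.646 to 7.10 in model skin, 0.075 to 0.127 in model DRG and 0.0612 to 0.330 in control DRG. Ly6g was at most 0.00579 per Csf3r count in model skin, against 0.156 to 0.397 in model DRG and 0.0291 to 0.214 in control DRG. These ratios share their denominator and are given without a test.

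**Figure D4:**
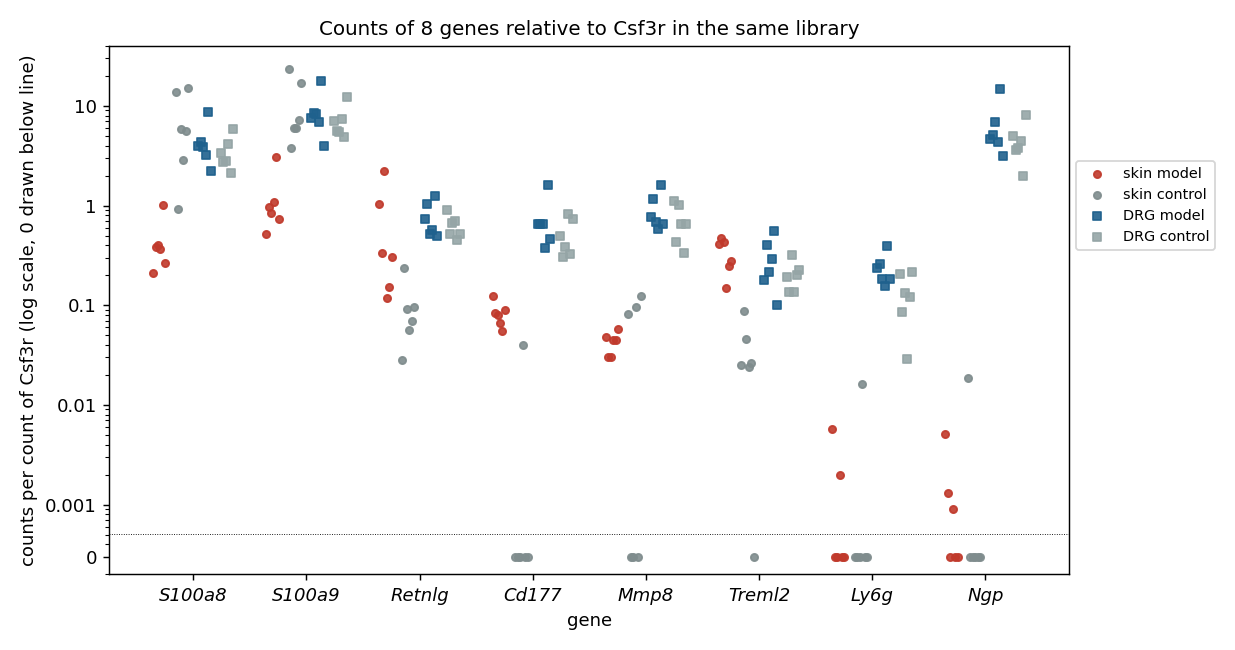
Counts of S100a8, S100a9, Retnlg, Cd177, Mmp8, Treml2, Ly6g and Ngp per count of Csf3r in each library, on a log axis, for model skin, control skin, model DRG and control DRG from left; points are libraries, and a ratio of 0 is drawn below the dotted line. Model skin lies below every DRG library for S100a8, S100a9, Mmp8, Cd177, Ly6g and Ngp, and overlaps DRG for Retnlg and Treml2.

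Other genes of neutrophil biology were taken from lists and are given by role. Of 23 other genes of mature neutrophils, 16 passed the filter, 8 rose and 1 fell. Fpr1 and Fpr2, receptors for formylated bacterial peptides, rose by 4.74 ± 0.82 and 3.22 ± 0.58, and Osm, the cytokine oncostatin M, by 3.32 ± 0.50 on the log2 scale (adjusted p = 0.00209, 0.00273 and 0.000929, edgeR). Padi4, the enzyme that citrullinates histones in neutrophils, was the one that fell, by 0.86 ± 0.28 (adjusted p = 0.0478, edgeR), and is named after its value was seen. Padi4 was at 45.29 to 167.7 CPM in control skin and 48.02 to 92.52 CPM in model skin. In the same controls Csf3r was at 1.46 to 7.12 CPM and Ly6g at most at 0.07093 CPM. The source of Padi4 in skin and the cause of its fall were not tested. The median over the 16 was 1.31.

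Of 10 adhesion and rolling genes 8 rose in skin, with a median of 2.02. Itgb2 and Itgam, the chains of the integrin Mac-1, rose by 3.03 ± 0.37 and 3.10 ± 0.41, and Selplg, the ligand of P-selectin, by 2.30 ± 0.31. Of 14 genes for binding partners of the products of the 10, 8 rose, among them Tyrobp, the adaptor through which TREM1 signals, which averaged 68.3 ± 23.3 CPM in model skin and 12.2 ± 5.26 CPM in control skin. Of 8 transcriptional regulators 3 rose: Spi1, which encodes PU.1, by 2.43 ± 0.33, Cebpe, a C/EBP factor of late granulocyte maturation, by 4.19 ± 0.61, and Gfi1, a repressor needed for granulocyte formation, by 1.29 ± 0.33. Gfi1 was not called with all 24 libraries in 1 fit (adjusted p = 0.162, edgeR). Of 8 growth factors and chemoattractants 6 were tested and 1 rose, Cxcl5, a ligand of CXCR2, at 8.69 ± 8.11 CPM in model skin and 0.499 ± 0.831 CPM in control skin (log2 difference 4.15 ± 1.26, adjusted p = 0.0378, edgeR). It passed in 4 of the 12 fits that left out 1 library, and not without the filter (adjusted p = 0.0610, edgeR). Cxcl3, another such ligand, differed by 2.46 ± 0.89 (adjusted p = 0.0702, edgeR).

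Of 11 granule genes of immature neutrophils, 5 passed the filter in skin and 2 rose. Chil3, a chitinase-like protein that mouse macrophages also express, rose by 4.90 ± 0.94, and Prtn3, proteinase 3, by 1.02 ± 0.30 (adjusted p = 0.0314, edgeR). Prtn3 passed in 5 of the 12 fits that left out 1 library, and not with all 24 libraries in 1 fit (adjusted p = 0.275, edgeR). Ms4a3 was at 0 in every skin library.

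Markers of other white cells moved with the skin result. All 12 monocyte and macrophage markers rose (median 2.06), and their sum was 604 to 1910 CPM in model skin, against 177 to 456 CPM in control skin. Of 8 eosinophil markers 4 were tested and 4 rose (median 3.07), including Ccr3, the eotaxin receptor, by 4.39 ± 0.53 and Siglecf, an eosinophil surface lectin, by 3.35 ± 0.42, with sums of 15.5 to 48.4 CPM in model skin, against 4.70 to 16.1 CPM in control skin. Of 7 T cell markers, all tested, 5 rose. Of 5 B cell markers 3 were tested and 3 rose, and of 8 mast cell and basophil markers 7 were tested and 5 rose. Of 7 red blood cell markers 6 were tested and 4 rose. The remaining red blood cell markers tested were negative, Slc4a1 by -0.72 ± 0.31 and Alas2 by -0.24 ± 0.20 (adjusted p = 0.123 and 0.425, edgeR). Csf3r, Trem1, Itgam, Itgb2, Spi1, Tyrobp and Fpr1 are also expressed by monocytes. The part of these other cells in the rise of the 6 genes was not tested. The eosinophil markers that did not pass the filter in skin are all given as summed counts. Epx, a granule protein of eosinophils, had 4 counts over the 6 model skin libraries and 0 in control skin. Prg2 had 90 and 11, Ear1 32 and 5, and Ear6 98 and 3. Ly6g, the surface marker of neutrophils, had 19 counts in model skin and 4 in control skin.

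In DRG, none of the 10 genes passed the test. All 10 were higher in the model on average, with log2 differences from 0.10 to 1.52 and a median of 1.19, against -0.01 over all genes tested. The median of the 10 was 0.69 with the replicate block, 0.53 in limma on log2(TPM + 1) and 0.73 on log2(TPM + 0.1), with all 10 positive in each. Of the 19509 genes tested in DRG, 0.0974% were called higher and 0% lower by edgeR. An unadjusted p under 0.05 was reached by 1 of the 10, Cxcr2, and by 1822 of the 19509 genes. DESeq2 also called 0 of the 10. With DESeq2, 2 of the 10 and 2029 of the 19509 genes had an unadjusted p under 0.05.

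Csf3r was at 1.96, 3.92 and 11.2 CPM (lowest, median and highest) in model DRG, against 1.99, 2.73 and 4.61 CPM in control DRG, a log2 difference of 0.61 ± 0.37 (adjusted p = 0.62, edgeR). Cxcr2 was at 0.396, 0.926 and 2.91 CPM in model DRG, against 0.342, 0.484 and 0.791 CPM in control DRG (1.08 ± 0.43, adjusted p = 0.50, edgeR). In both cases the groups overlapped, and the highest model library lay far above the rest. Treml2 was at 0.253, 0.990 and 6.17 CPM in model DRG, against 0.271, 0.619 and 1.04 CPM in control DRG (1.47 ± 0.69, adjusted p = 0.543, edgeR). Trem1 reached 1.26 CPM in model DRG and 0.392 CPM in control DRG and differed by 1.28 ± 0.85 (adjusted p = 0.654, edgeR). Il1r2 was low in both groups, at 0.190 to 1.0 CPM in model DRG and 0.228 to 0.658 CPM in control DRG, and differed by 0.10 ± 0.38 (adjusted p = 0.955, edgeR).

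S100a8 was at 5.65, 7.78, 12.3, 15.6, 19.7 and 97.7 CPM in model DRG, in order of level, against 5.52, 7.29, 7.85, 8.33, 12.6 and 27.3 CPM in control DRG. S100a9 was at 10.1, 29.7 and 197 CPM (lowest, median and highest) in model DRG, against 12.7, 15.0 and 56.7 CPM in control DRG. The alarmin values in the 2 groups overlapped apart from the single high model library. The log2 differences were 1.2 ± 0.70 (adjusted p = 0.615, edgeR) and 1.18 ± 0.71 (adjusted p = 0.624, edgeR). The alarmin pair kept nearly 1 ratio in DRG, with 1.79 to 2.14 counts of S100a9 per count of S100a8 in model DRG and 1.77 to 2.30 in control DRG. In skin that ratio was 2.07 to 3.04 in the model and 1.02 to 4.06 in controls.

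Retnlg was at 1.27, 2.14 and 13.9 CPM in model DRG, against 1.18, 1.62 and 3.38 CPM in control DRG (1.15 ± 0.58, adjusted p = 0.567, edgeR). Mmp8 was at 1.52, 2.51 and 17.8 CPM in model DRG, against 0.867, 2.06 and 4.12 CPM in control DRG (1.23 ± 0.66, adjusted p = 0.583, edgeR). Cd177 was at 1.16, 2.04 and 18.0 CPM in model DRG, against 0.817, 1.35 and 3.36 CPM in control DRG (1.52 ± 0.73, adjusted p = 0.547, edgeR). For all 3 the model median lay within the control range, and the lowest model library stood below the highest control.

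Model DRG library 5 was the highest of its group for all 10 genes. The sum of the 10 was 366.9 CPM there, and the other 5 ranged over 23.4 to 80.1 CPM. Without that library the median log2 difference was 0.27, and 9 of the 10 were positive. S100a8 then differed by 0.09 and Cxcr2 by 0.55. In control DRG, library 6 was the highest for 6 genes, with a sum of 99.8 CPM, against 25.3 to 54.2 CPM in the others, and without it the differences of S100a8 and S100a9 were both 1.66 (adjusted p = 0.493 for each, edgeR).

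**Figure D5:**
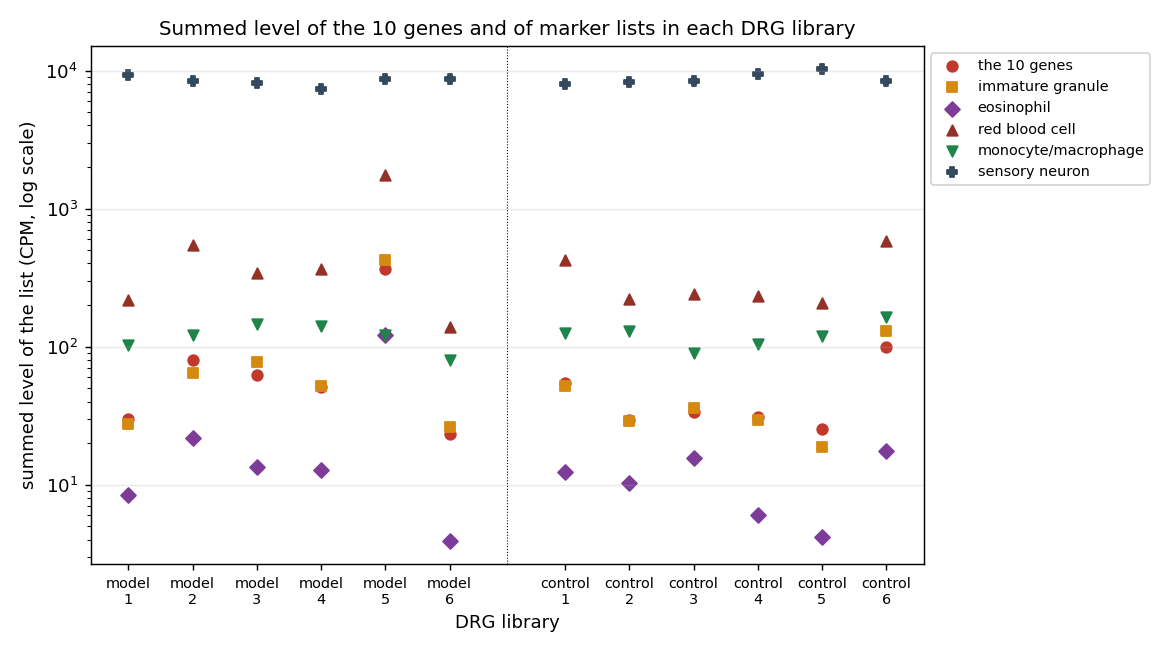
Summed level in CPM, on a log axis, of the 10 genes and of 5 marker lists in each DRG library, model libraries 1 to 6 left of control libraries 1 to 6; each point is 1 list in 1 library. In model library 5 the 10 genes sum to 366.9 CPM and the red blood cell genes to 1737 CPM, while the sensory neuron genes, at 8683 CPM, lie among those of the other libraries.

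In the same library 5 other transcripts of blood and marrow cells were also at their highest. The 11 immature granule genes summed to 421.2 CPM there; the remaining model DRG libraries ranged from 26.3 to 76.8 CPM and control DRG from 18.8 to 129.6 CPM. Red blood cell genes summed to 1737 CPM, the remaining model libraries having 139 to 540 CPM and control DRG 208 to 585 CPM. The 8 eosinophil genes summed to 121.5 CPM, where the remaining model libraries had 3.92 to 21.6 CPM and control DRG 4.21 to 17.6 CPM. Sensory neuron genes, at 8683 CPM, and the 12 monocyte and macrophage genes, at 120.9 CPM, were within the range of the other model libraries. Control library 6 was likewise the highest control for the granule genes, at 129.6 CPM, the red blood cell genes, at 584.7 CPM, and the eosinophil genes, at 17.6 CPM. The part of these transcripts in the DRG result was not tested.

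By edgeR, no tested gene of the lists of neutrophil biology passed in DRG. Of 23 other mature neutrophil genes 15 were tested, with a median of 0.99 and 13 positive. At an unadjusted p under 0.05 were 3, beside 1822 of all 19509 genes tested. The smallest of the 3 was that of Mrgpra2a, a receptor of the Mrgpr family, which was lower in the model: 7.28 to 7.91 CPM in model DRG, against 8.20 to 9.79 CPM in control DRG, a log2 difference of -0.26 ± 0.06 (adjusted p = 0.254, edgeR). All 6 model libraries lay below every control, as for 0.149% of all genes tested. Its close relative Mrgpra2b may share reads with it. In model DRG library 5, the highest for all 10 genes, Mrgpra2a was at 7.66 CPM, within the range of the other model libraries. It averaged 0.277 CPM in model skin and 0.0357 CPM in control skin. Which cells of DRG its transcripts came from was not tested, and its difference is not read as one of neutrophils. Fpr2 and Ly6g, also at an unadjusted p under 0.05, were positive. The 11 immature granule genes were all tested, with a median of 1.03, 11 positive and 0 at an unadjusted p under 0.05. Fpr2 differed by 1.06 ± 0.42 (adjusted p = 0.504, edgeR), Ngp by 1.46 ± 0.79 (adjusted p = 0.586, edgeR) and Chil3 by 1.45 ± 0.78 (adjusted p = 0.588, edgeR). Ppbp, a platelet chemokine, differed by 1.99 ± 0.90 (adjusted p = 0.530, edgeR), and Csf3, Csf2, Cxcl3 and Il17a were at 0 in every DRG library. Epx and Prg2, eosinophil granule proteins, differed by 1.84 ± 0.89 and 1.58 ± 0.78 (adjusted p = 0.549 and 0.558, edgeR). The monocyte markers had a median of -0.01, with 5 of 12 positive. Without library 5 the differences of Ngp, Chil3 and Epx were 0.17, 0.27 and 0.35.

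The model effect was larger in skin than in DRG for 4 of the 10 genes, and smaller for 0, by a test of the difference between the tissues' effects over the 17251 genes that passed the filter in both. That test called 10.6% of genes higher in skin and 6.43% lower, and with scaling factors set within each tissue it called 2174 genes higher and 654 lower, in place of 1832 and 1110. The skin effect minus the DRG effect was 4.92 ± 0.94 for Retnlg (adjusted p = 0.00123), 2.84 ± 0.70 for Csf3r (adjusted p = 0.00805), 4.89 ± 1.27 for Cd177 (adjusted p = 0.0111) and 5.18 ± 1.01 for Treml2 (adjusted p = 0.00147), all by edgeR. For S100a8 it was -2.26 ± 1.06 (adjusted p = 0.141), and without skin control library 1 it was -1.05. For S100a9 it was -1.47 ± 1.07 (adjusted p = 0.355), for Mmp8 1.71 ± 1.12 (adjusted p = 0.297), for Trem1 1.06 ± 1.14 (adjusted p = 0.550), for Cxcr2 0.05 ± 0.70 (adjusted p = 0.971) and for Il1r2 0.09 ± 0.44 (adjusted p = 0.906), all by edgeR. These 6 differences were not resolved by these libraries, and a p that misses the threshold does not show that the tissues acted alike.

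Some of the genes share their locus with predicted genes. Csf3r overlaps Gm32908, which had at most 75 counts in any model skin library and 7 in any control skin library, Mmp8 overlaps Gm31751, with at most 34 counts in any library, and Il1r2 overlaps Gm16894, with at most 49. Trem1 overlaps 3 predicted genes, Gm52308, Gm18679 and Gm52307, which were not analysed here. The counts were not stated to use strand, so reads of overlapping genes cannot be told apart. S100a8 and S100a9 belong to a family of related genes, and reads shared between related genes could have been split by the counting.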

How the data were processed

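PolyA RNA was sequenced from 24 libraries in 4 groups of 6, assigned by sample titles. Per the submitters' processing notes, bcl2fastq 2.20.0, Trimmomatic, HISAT2 2.1.0 and StringTie 2.1.3b were used with GRCm38/mm10; the counting method, strand setting and any filters are not given in the sources used here. For each library the deposited file gives read counts per gene that the authors left unnormalised, FPKM values computed by the authors, which were not used, and TPM values computed by the authors, used for levels between genes and in alternative tests on log2(TPM + 1) and log2(TPM + 0.1). CPM were computed from the counts with TMM factors. Depth was 45238735 to 68396846 counts per library; floors cover counting error only.

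Skin and DRG were fitted separately with edgeR 4.0.16 under R 4.3.3, using filterByExpr, TMM, robust quasi-likelihood dispersion and the F test, two-sided, with BH adjustment over all genes tested and a threshold of 0.05; a contrast of the 4 groups in 1 fit of 24 libraries gave the tissue difference. SE were derived from the log2 fold change and the F statistic. Alternatives were DESeq2 1.42.0, RLE factors, no filter, a filter of 1 CPM in 6 libraries, non-robust dispersion, all 24 libraries in 1 fit, a replicate block, limma 3.58.1 on TPM, scaling within each tissue, and each library left out in turn. The fit was tested on simulated data. Same-numbered libraries did not deviate together, and numbers were not taken as pairs in the main fits. The tissue difference therefore treated the 24 libraries as independent, which the labels do not settle. Of 163 list symbols 1 was not matched. Besides the 10 genes, up to 4 genes per list with the smallest p in skin and up to 2 in DRG were named. The eosinophil markers below the filter in skin were named in addition, after their values had been seen. One gene that this rule names is not reported here. The 10 genes and the lists were chosen with earlier results of these data known.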

Additional observations from a re-analysis of the deposited data

Results flagged for a closer look

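In each group of 6 libraries, the gap between the highest or lowest library and its nearest neighbour was divided by the group's range, and a value above Dixon's 95% limit for 6 values marked the library as far from the others. Of 40 sets of values (10 genes in 4 groups) 15 were marked, where chance marks about 1 in 20 if values are normally distributed. The CPM were not transformed, and Cd177 was at 0 in every control skin library but 1, so that rate need not hold here. Model DRG library 5 was the marked library for 9 of the 10 genes: S100a8 at 97.7 CPM, S100a9 at 197 CPM, Retnlg at 13.9 CPM, Csf3r at 11.2 CPM, Cxcr2 at 2.91 CPM, Mmp8 at 17.8 CPM, Trem1 at 1.26 CPM, Cd177 at 18.0 CPM and Treml2 at 6.17 CPM. These 9 marks come from 1 library and are not independent of each other. Control DRG library 6 was marked for S100a8 at 27.3 CPM and S100a9 at 56.7 CPM. In control skin, library 1 was marked for S100a8 at 97.9 CPM and S100a9 at 166 CPM, library 2 for Retnlg at 0.574 CPM and library 4 for Cd177 at 0.177 CPM, which was 10 counts.

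The model effect differed between skin and DRG, by edgeR's test of the difference itself, for Retnlg by 4.92, for Csf3r by 2.84, for Cd177 by 4.89 and for Treml2 by 5.18 on the log2 scale, with the skin effect the larger of the pair each time.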

How the results depend on the processing

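Retnlg and Csf3r were called in skin and in the tissue difference under every alternative run. Treml2 and Cd177 were called wherever they were tested, except Cd177 in the tissue difference by limma on log2(TPM + 1). With each library left out in turn, 4 to 7 of the 10 genes were called in skin, 0 in DRG and 4 in the difference. At a filter of 1 CPM in 6 libraries 3 were called in skin and 2 in the difference, because fewer of the 10 were tested. The replicate block changed no count of the 10 genes (6, 0 and 4). Same-numbered model and control libraries correlated from -0.56 to 0.31 in their deviations, and same-numbered skin and DRG libraries from -0.18 to 0.12. The library names carry the same numbers in both tissues, but the labels do not say whether these share a mouse. Such correlations cannot decide that. S100a9 in skin changed sign to 0.30 in limma on log2(TPM + 1) and on log2(TPM + 0.1), and to 0.44 with the block; the cause was not tested. Leaving out 1 library gave -1.44 to 0.15 for S100a8 in skin, -0.75 to 1.07 for S100a9 in skin, -0.24 to 0.26 for Il1r2 in DRG and, in the difference, -0.41 to 0.57 for Cxcr2 and -0.06 to 0.42 for Il1r2. Over all genes, 3892 were called in skin and 6820 with all 24 libraries in 1 fit, and 2564 to 6278 with 1 library left out. In DRG 19 were called, 136 by DESeq2, 12 with the CPM filter, 6 with the block, 32 with all 24 libraries and 11 to 36 with 1 library left out. In the difference 2942 were called, and 2229 to 4646 with 1 library left out. At this depth genes under about 1 CPM, such as Trem1 in DRG, rest on few counts.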
